A study of Mus musculus with 78 samples.

Results

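The matricellular proteins and the CCN family (cellular communication network factors) were examined here through 10 genes, Postn, Tnc, Spp1, Thbs1, Thbs2, Fn1, Tgfbi, Sparc, Ccn1 and Ccn2. For each gene the probe sets annotated to that symbol alone were taken, and the one with the highest mean over all 78 arrays represented it. Such a probe set was found for 8 of the 10 genes, among 17097 genes named in the same way, and Spp1 and Thbs1 were not analysed here. All 8 were above the array median on at least 4 arrays and so were among the 11344 genes tested.

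Both common carotids of 39 mice, the left (LCA) and the right (RCA), gave endothelium-enriched RNA for 1 array each. The LCA had been partially ligated in every animal, an operation that leaves the vessel open with low and disturbed flow, and the RCA was the control. Mice were given atorvastatin, a statin, at 10 mg/kg/day or vehicle by daily oral dosing that started 2 days before the operation, and were sampled at 12 h, 24 h, 48 h or 2 weeks. There were 5 mice in each combination of treatment and time, except 4 under atorvastatin at 48 h; the sources used here give no strain, sex, age or genotype. No unoperated mice were among these samples, so the RCA also comes from operated and dosed animals. RNA was obtained by flushing the lumen, and of 14 endothelial markers 12 lay above the array median on all 78 arrays (the others, Kdr and Robo4, on 54 and 35). The smooth muscle markers Acta2 and Lmod1, the fibroblast markers Dcn, Mfap5 and Gsn and the adipocyte marker Fabp4 also lay above it on all 78.

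Matricellular proteins are secreted into the extracellular matrix, where they modulate how cells attach, migrate and receive growth factor signals rather than serving as structural scaffold. Ccn1 and Ccn2 are rapidly induced targets of the YAP/TAZ and SRF transcriptional programmes and of TGF-beta, and are widely used as readouts of mechanical stimulation. Periostin (Postn), tenascin-C (Tnc) and thrombospondin-2 (Thbs2) are typically low in quiescent adult tissue and appear in remodelling and scarring, while fibronectin (Fn1) and SPARC are made by many cells of the vessel wall. Tgfbi encodes a TGF-beta-induced adhesion protein that binds integrins and collagens.

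The promoters of 3 members are shown because Ccn1 was called at 48 h in both treatments, whereas Postn and Tnc were not called until 2 weeks. Each is the 250 bases before the start of the gene, 5′ to 3′ on the gene's strand, from RefSeq on GRCm38.p6. Capitals mark matches to GGAATG, the core of TEAD sites, and to TATAAA, the TATA box, on either strand. Ccn1 (chr3:145649986-145650235, minus strand) holds a TEAD match at 103 to 98 bases before the start, on the opposite strand, and a TATA match at 25 to 20 bases before it. Tnc (chr4:64047016-64047265, minus strand) holds a TATA match at 126 to 121 bases before the start, and Postn (chr3:54359017-54359266, plus strand) holds none in this window. A second RefSeq window of Postn (chr3:54360857-54361106, plus strand), not shown, holds a TATA match at 26 to 21 bases before the other start that it precedes. A second window of Tnc (chr4:64046937-64047186, minus strand), also not shown, holds the same TATA match as the first, at 205 to 200 bases before its own start.
Ccn1: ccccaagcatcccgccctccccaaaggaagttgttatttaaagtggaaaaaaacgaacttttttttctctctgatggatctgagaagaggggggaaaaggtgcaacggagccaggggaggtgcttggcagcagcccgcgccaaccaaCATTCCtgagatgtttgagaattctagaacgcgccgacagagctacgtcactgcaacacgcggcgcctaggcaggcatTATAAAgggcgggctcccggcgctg
Postn: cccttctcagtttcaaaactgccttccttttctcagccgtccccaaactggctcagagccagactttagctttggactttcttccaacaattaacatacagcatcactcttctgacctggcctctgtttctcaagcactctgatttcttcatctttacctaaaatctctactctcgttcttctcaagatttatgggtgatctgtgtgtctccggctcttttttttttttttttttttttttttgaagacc
Tnc: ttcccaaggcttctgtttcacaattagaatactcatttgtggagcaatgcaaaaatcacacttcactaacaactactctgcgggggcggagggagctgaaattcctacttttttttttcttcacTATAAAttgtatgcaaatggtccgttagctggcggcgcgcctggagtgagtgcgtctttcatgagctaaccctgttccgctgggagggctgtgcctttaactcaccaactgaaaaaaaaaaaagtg
Of 32851 mouse promoter windows of this length, 12.6% hold the TEAD core and 12.4% the TATA letters. The AP-1 letters TGANTCA (in 6.75% of windows) and the CArG box of SRF (in 1.47%) were searched too and were in none of the 3. The windows for Tgfbi, Sparc and Thbs2 were searched in the same way: Thbs2 holds a TATA match on the opposite strand at 126 to 121 bases before the start, and the other 2 hold no match. No window was available for Ccn2 or Fn1, so neither was searched.

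Several arrays stood apart in ways that touch the members. Marker levels below are the mean log2 value of a cell type's genes on an array. The LCA of vehicle mouse 2 at 2 weeks had a smooth muscle level of 5.61 (8 genes), against 8.27 to 9.22 in the LCA of the other 4 mice of its group. The LCA of vehicle mouse 4 at 48 h had a neutrophil level of 3.42 (6 genes), against 6.82 to 8.23 in the other 4, and its median correlation with them, 0.878, was the lowest of all arrays. All 4 LCA arrays of the atorvastatin group at 48 h were nearly as low within their own group, at 0.881 to 0.886. The next lowest array of the series was at 0.938. On the control side, the RCA of vehicle mouse 3 at 12 h and of atorvastatin mouse 9 at 24 h had smooth muscle levels of 7.54 and 7.02, when the other RCA arrays of their groups lay at or under 5.05 and 5.11. Values without the mice numbered here are given beside the results they moved most.

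Ccn2, which encodes connective tissue growth factor, was the earliest member to differ between the arteries and the only one called at 12 h and at 24 h. At 12 h it measured 12.32, 12.01, 12.51, 12.28 and 12.42 in the LCA of atorvastatin-treated mice (log2), against 10.67, 10.03, 9.64, 10.13 and 12.00 in the RCA of the same mice. In vehicle-treated mice the 12 h values were 12.03, 12.31, 12.33, 12.37 and 12.26 in the LCA, against 9.19, 10.35, 10.67, 10.13 and 9.69 in the RCA. Every LCA value at 12 h lay above every RCA value of its group, with atorvastatin mouse 10 the closest pair.

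The log2 LCA minus RCA difference of Ccn2 at 12 h was 1.81 under atorvastatin (SE 0.35, 3.52-fold, adjusted p = 0.00279) and 2.25 under vehicle (SE 0.35, 4.77-fold, adjusted p = 1.69e-04). SE is the standard error of the limma fit, p is Benjamini-Hochberg adjusted over all tested genes, and a gene is called when adjusted p is under 0.05. That was 1 of 8 members in each treatment, where 1.68% of all tested genes were called under atorvastatin (0.758% as higher) and 2.39% under vehicle (1.31% as higher). With the spread estimated from the mice of that group alone, the atorvastatin call at 12 h was lost (adjusted p = 0.149). The difference between 3′ and 5′ Gapdh control probe sets, a sign of RNA quality, averaged 4.87 in the LCA and 4.20 in the RCA under atorvastatin at 12 h, and 4.82 in the LCA and 4.74 in the RCA under vehicle (log2).

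At 24 h Ccn2 averaged less in both arteries than at 12 h, and the arteries still differed. It averaged 10.83 ± 0.71 in the LCA and 9.01 ± 1.77 in the RCA of atorvastatin-treated mice, and 10.29 ± 0.71 in the LCA and 7.92 ± 0.67 in the RCA of vehicle-treated mice (SD, n = 5 each). The difference was 1.82 under atorvastatin (adjusted p = 6.07e-04) and 2.38 under vehicle (adjusted p = 1.6e-05). Again it was the only called member, where 13.1% of tested genes were called under atorvastatin (7.29% as higher) and 14.3% under vehicle (7.19% as higher). The atorvastatin adjusted p was 0.0527 when the fit held that group alone. At 24 h the Gapdh difference averaged 4.56 in the LCA and 4.10 in the RCA under atorvastatin, and 4.97 in the LCA and 4.04 in the RCA under vehicle. Within vehicle mice at 24 h it was higher in the LCA of every mouse, by 0.41 to 1.68, as was the like actin difference, by 0.15 to 0.41. Within atorvastatin mice at 24 h the ranges were -0.23 to 0.74 for Gapdh and -0.26 to 0.45 for actin. The part of RNA quality in the 12 h and 24 h results of any member was not tested.

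The atorvastatin arteries overlapped at 24 h through mouse 7, whose RCA measured 11.97 against 7.45 to 9.19 in the other 4, so that its LCA minus RCA was -0.59. Without this mouse the atorvastatin difference was 2.42 (5.35-fold, adjusted p = 6.25e-06). The same RCA array also had the highest Ccn1 of its group, 11.88 against 8.25 to 9.82, while its smooth muscle level was 4.92 and its macrophage level 5.33 (13 genes), both inside the range of the group.

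At 48 h the Ccn2 difference was 3.81 under atorvastatin (SE 0.40, 14.1-fold, adjusted p = 2.86e-08) and 3.32 under vehicle (SE 0.35, 9.96-fold, adjusted p = 2.64e-08). At 2 weeks it was 2.78 under atorvastatin (6.89-fold, adjusted p = 1.15e-07) and 3.15 under vehicle (8.89-fold, adjusted p = 1.16e-08). LCA and RCA values did not overlap in either treatment at these times. The LCA mean was not higher than at 12 h: it was 12.31 at 12 h, 12.04 at 48 h and 12.22 at 2 weeks under atorvastatin. Under vehicle it was 12.26, 11.85 and 11.83. The RCA mean was lower at 48 h than at 12 h, at 8.23 against 10.49 under atorvastatin and 8.53 against 10.01 under vehicle. Across all 39 mice, Ccn2 was higher in the LCA in all but atorvastatin mouse 7 at 24 h.

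**Figure D1:**
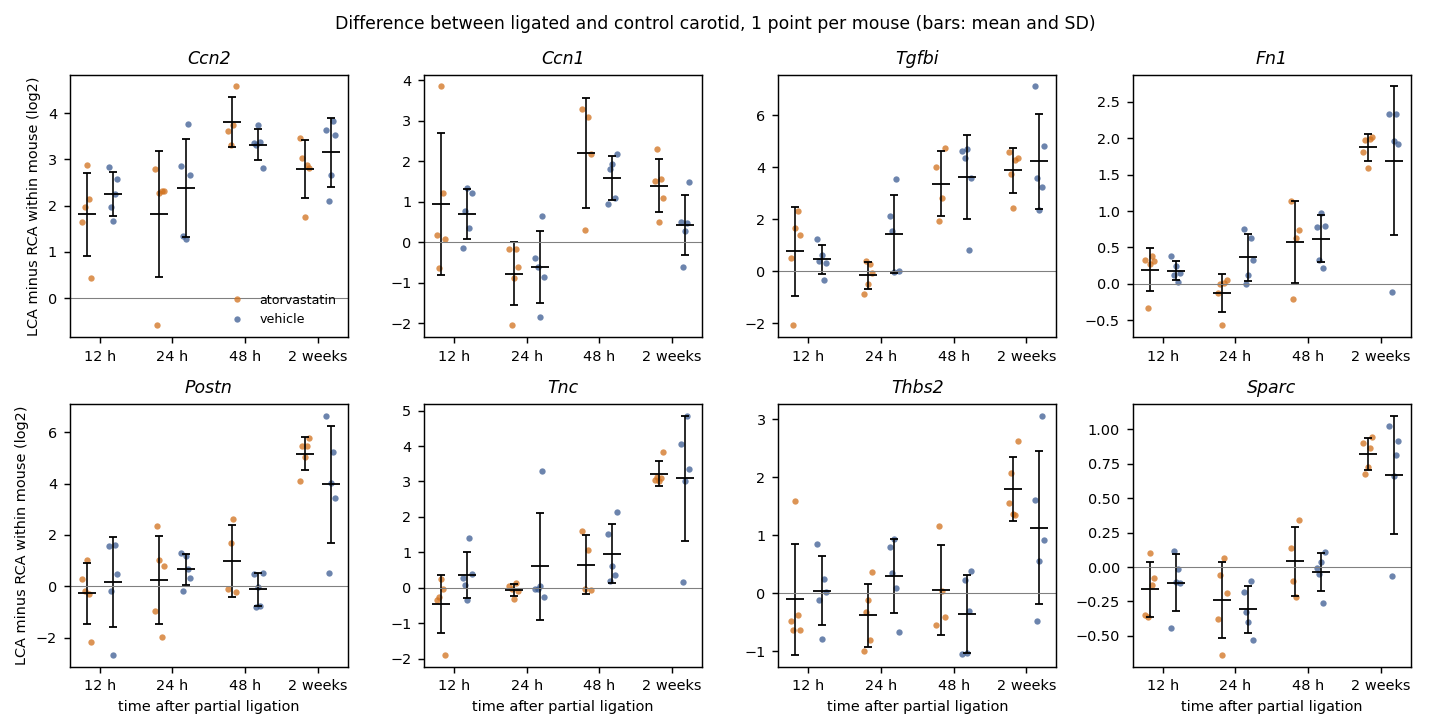
LCA minus RCA within each mouse on the log2 scale (vertical axis) at the 4 times (horizontal axis) for the 8 measured genes, atorvastatin left of vehicle, with mean and SD as bars. Ccn2 lies above 0 from 12 h in every mouse but atorvastatin mouse 7 at 24 h, and Tgfbi and Ccn1 lie above 0 in every mouse at 48 h. The means of Postn, Tnc, Thbs2, Fn1 and Sparc are highest at 2 weeks.

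The control artery was not constant over time for Ccn2 in either treatment, nor for Ccn1 under vehicle. Ccn2 in the RCA of atorvastatin-treated mice averaged 10.49 ± 0.92 at 12 h, 9.01 ± 1.77 at 24 h, 8.23 ± 0.42 at 48 h (n = 4) and 9.44 ± 0.75 at 2 weeks. In the RCA of vehicle-treated mice it averaged 10.01 ± 0.58, 7.92 ± 0.67, 8.53 ± 0.43 and 8.68 ± 0.44 at the same times (SD, n = 5 each). The change over the 4 times passed the F test under atorvastatin (adjusted p = 0.043, where 5.88% of tested genes passed) and under vehicle (adjusted p = 0.0181, where 26.8% passed). The Gapdh difference in the RCA averaged 4.20, 4.10, 3.81 and 3.96 at these times under atorvastatin, and 4.74, 4.04, 4.33 and 3.81 under vehicle. The part of RNA quality in the RCA time course was not tested.

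Ccn1 and Sparc also changed over time in the RCA of vehicle-treated mice (F test, adjusted p = 0.0185 and 0.016), as did 26.8% of all tested genes. Neither passed under atorvastatin (adjusted p = 0.365 and 0.199). Ccn1 in the vehicle RCA averaged 8.92 ± 0.35 at 12 h and 10.95 ± 0.42 at 2 weeks. The atorvastatin call for Ccn2 was lost on leaving out any of 13 of the 19 mice, with adjusted p between 0.0523 and 0.11, and the vehicle call for Ccn2 was lost without the 12 h mouse 3 (adjusted p = 0.065).

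**Figure D2:**
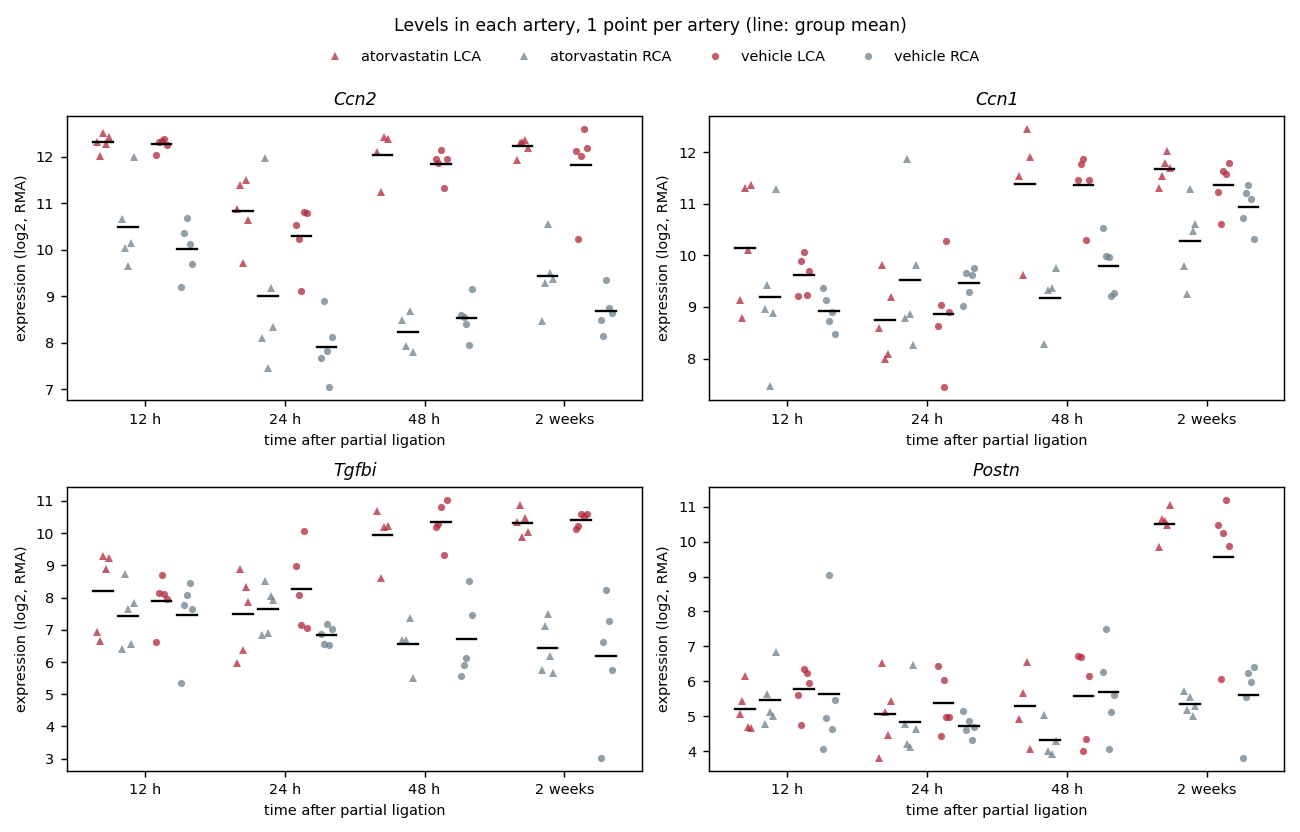
Log2 expression (vertical axis) of Ccn2, Ccn1, Tgfbi and Postn in each artery at the 4 times, with atorvastatin LCA and RCA left of vehicle LCA and RCA and a line at each group mean. The Ccn2 mean is lower at 24 h than at 12 h in both arteries of both treatments, while Postn is at 9.84 or above at 2 weeks in the LCA of every mouse but vehicle mouse 2.

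Ccn1, which encodes the integrin-binding protein CYR61, differed between the arteries most clearly at 48 h. Its LCA values at 48 h were 11.55, 9.62, 12.45 and 11.91 under atorvastatin, against 8.27, 9.32, 9.37 and 9.75 in the RCA. Under vehicle they were 11.47, 11.78, 11.88, 10.30 and 11.46 in the LCA, against 10.53, 9.98, 9.96, 9.22 and 9.28 in the RCA. The LCA was higher in all 9 mice, although the 2 arteries overlapped in both groups.

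The Ccn1 difference at 48 h was 2.20 under atorvastatin (SE 0.47, 4.61-fold, adjusted p = 5.71e-04, or 0.0752 with that group fitted alone) and 1.58 under vehicle (SE 0.42, 2.99-fold, adjusted p = 0.0035). At 24 h it had been -0.78 under atorvastatin (adjusted p = 0.239) and -0.62 under vehicle (adjusted p = 0.357), so the step between 24 h and 48 h was 2.98 under atorvastatin (adjusted p = 0.00132) and 2.20 under vehicle (adjusted p = 0.0067). That step was called for 24.1% of tested genes under atorvastatin (11.1% as higher) and 27.8% under vehicle (15% as higher). No tested gene was called for the step between 12 h and 24 h in limma, with 756 genes under atorvastatin and 1189 under vehicle at an unadjusted p under 0.05, Ccn1 among them in both.

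At 2 weeks Ccn1 was called under atorvastatin (1.39, SE 0.42, 2.62-fold, adjusted p = 0.0109) but not under vehicle (0.42, SE 0.42, adjusted p = 0.495). The test of that difference between treatments gave 0.97 with a 95% interval of -0.24 to 2.18 (adjusted p = 1). The LCA averaged 11.67 ± 0.27 under atorvastatin and 11.37 ± 0.48 under vehicle, and the RCA 10.28 ± 0.79 under atorvastatin and 10.95 ± 0.42 under vehicle (SD, n = 5 each). The atorvastatin call was lost without mouse 7 (1.17, adjusted p = 0.069). Both probe sets of Ccn1 gave similar values, the second averaging 1.70 under atorvastatin and 0.49 under vehicle at 2 weeks.

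Tgfbi rose by 48 h and stayed high. At 48 h its LCA values were 10.69, 8.60, 10.18 and 10.24 under atorvastatin, against 6.67, 6.69, 7.36 and 5.51 in the RCA. Under vehicle they were 10.20, 10.28, 10.82, 9.32 and 11.04 in the LCA, against 5.57, 5.91, 6.12, 8.50 and 7.46 in the RCA. The arteries did not overlap in either group.

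The Tgfbi difference at 48 h was 3.37 under atorvastatin (SE 0.63, 10.3-fold, adjusted p = 1.53e-04) and 3.62 under vehicle (SE 0.57, 12.3-fold, adjusted p = 1.01e-05). At 2 weeks it was 3.88 under atorvastatin (14.7-fold, adjusted p = 1.44e-06) and 4.23 under vehicle (18.8-fold, adjusted p = 3.56e-07), and the step between those times did not pass in either treatment. At 2 weeks the LCA averaged 10.32 ± 0.39 and the RCA 6.44 ± 0.81 under atorvastatin. Under vehicle they averaged 10.41 ± 0.22 and 6.18 ± 1.98 (SD). Vehicle mouse 1 had an RCA value of 3.03, below the array medians of 4.59 to 4.77, and the largest difference of its group, 7.105. The step between 24 h and 48 h was 3.53 under atorvastatin (adjusted p = 0.00349) and 2.18 under vehicle (adjusted p = 0.0404); the vehicle call was lost on leaving out any of 7 of 10 mice and when the pairing of arteries was ignored (adjusted p = 0.0641). Vehicle mouse 4 had the smallest 48 h difference, 0.82 against 3.58 to 4.69 in the other 4, and without it the vehicle difference was 4.32 (19.9-fold, adjusted p = 6.03e-07). Its neutrophil marker difference was -0.04 against 3.17 to 4.13, and its macrophage marker difference 0.80 against 1.34 to 2.75.

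At 48 h the macrophage markers moved with these genes: 11 of 13 were called higher in the LCA under atorvastatin and 9 of 13 under vehicle, with none lower. Of the neutrophil markers, 4 of 4 tested were higher in both. Among these markers, Adgre1, C1qa, Fcgr1, Cxcr2 and Csf3r lay above the array median on only 0 to 3 RCA arrays. They were tested only because LCA arrays reached the limit of 4, so their direction is not independent evidence. The macrophage level was 5.56 to 7.93 in the LCA and 3.99 to 5.05 in the RCA under atorvastatin, and 6.83 to 7.42 in the LCA and 4.10 to 6.22 in the RCA under vehicle. The part of these cells in the Tgfbi and CCN differences was not tested, and in bulk RNA a change in the number of cells of a type and a change in RNA per cell cannot be told apart. Counting all members at 48 h, 3 of 8 were higher under atorvastatin (31.8% of tested genes called, 16.6% as higher) and 4 of 8 under vehicle (36.2% called, 20.8% as higher), with a median difference over the 7 members other than Tnc of 0.99 and 0.62 against -0.01 and 0.01 over all tested genes.

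Fn1 was the additional member called under vehicle at 48 h (0.62, SE 0.21, 1.54-fold, adjusted p = 0.0179, higher in 5 of 5 mice). Under atorvastatin it measured 0.58 (SE 0.23, adjusted p = 0.0525, higher in 3 of 4 mice). The vehicle call was lost without mouse 1, 3 or 5, with adjusted p between 0.0671 and 0.0885. Fn1 was called under atorvastatin without mouse 7 (0.84, adjusted p = 0.00907) or with the pairing of arteries ignored (adjusted p = 0.0329). It was also called with the number in the sample titles as a random block (0.59, adjusted p = 0.048) or with all probe sets of a gene averaged (adjusted p = 0.0473). Fn1 has 1 probe set, so that averaging changed only other genes of the fit.

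At 2 weeks the 7 members other than Tnc, which was near the floor of the arrays in most samples and is described apart, were all higher in the LCA under atorvastatin, where 29.9% of tested genes were called in either direction and 14.5% were higher. Under vehicle 6 of these 7 were higher, all but Ccn1, where 27.8% of tested genes were called and 15.5% were higher. Their median difference was 1.87 under atorvastatin and 1.69 under vehicle, against -0.03 and -0.01 over all tested genes.

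Postn, which encodes a collagen- and integrin-binding protein of healing tissue, had the largest change of the 8 under atorvastatin. Its LCA values at 2 weeks were 9.84, 10.63, 10.58, 10.48 and 11.06 under atorvastatin, against 5.72, 5.17, 5.56, 5.0 and 5.29 in the RCA. Under vehicle they were 10.46, 6.07, 10.26, 11.20 and 9.86 in the LCA, against 3.82, 5.54, 6.25, 5.98 and 6.42 in the RCA. The arteries were far apart in 9 of 10 mice, and vehicle mouse 2 had an LCA value within the RCA range.

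The Postn difference was 5.17 under atorvastatin (SE 0.60, 36-fold, adjusted p = 1.77e-08) and 3.97 under vehicle (SE 0.60, 15.6-fold, adjusted p = 2.77e-06). None of the 3 earlier times was called in either treatment, and their means lay between -0.27 and 0.99. Without the mice whose RCA had high smooth muscle levels, the Postn difference was 0.80 under atorvastatin at 24 h (0.24 with all mice) and 0.86 under vehicle at 12 h (0.16 with all mice), neither called. The step between 48 h and 2 weeks was 4.18 under atorvastatin (adjusted p = 0.00261) and 4.09 under vehicle (adjusted p = 0.00241), a step called for 8.32% of tested genes under atorvastatin (4.28% as higher) and 5.76% under vehicle (3.68% as higher).

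Tnc, a hexameric glycoprotein of remodelling matrix, was above the array median on only 12 of 78 arrays. At 2 weeks it measured 5.67, 6.82, 5.75, 5.71 and 6.36 in the LCA under atorvastatin, against 2.62, 3.70, 2.74, 2.61 and 2.52 in the RCA. Under vehicle it measured 6.72, 3.11, 5.58, 7.67 and 5.90 in the LCA, against 2.67, 2.94, 2.56, 2.83 and 2.55 in the RCA. All RCA values were low, and mouse 2 was the one vehicle LCA near them.

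The Tnc difference at 2 weeks was 3.22 under atorvastatin (SE 0.43, adjusted p = 2.91e-07) and 3.08 under vehicle (SE 0.43, adjusted p = 7.38e-07). Tnc passed the filter on dim genes through the group where it was high and so had to differ, and no fold is given because its RCA values lay far below the array medians of 4.59 to 4.77. Its second probe set, with a mean of 2.75 over all arrays, differed by only 0.30 under atorvastatin and 0.28 under vehicle, so the probe sets disagree. At 24 h a single vehicle mouse, number 4, had an LCA value of 5.80 against 2.50 to 2.62 in the other 4. Its LCA also had a neutrophil level of 6.41 against 3.51 to 3.97, and a Tgfbi value of 10.07 against 7.05 to 8.97.

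Thbs2, an inhibitor of angiogenesis that binds matrix proteases, differed by 1.80 at 2 weeks under atorvastatin (SE 0.34, 3.48-fold, adjusted p = 8.23e-05, higher in 5 of 5 mice). Under vehicle the difference was 1.14 (SE 0.34, 2.20-fold, adjusted p = 0.0113, higher in 4 of 5 mice), and the call was lost without mouse 1 (1.02, adjusted p = 0.0564) or mouse 4 (0.65, adjusted p = 0.185). It was also lost with that group fitted alone (adjusted p = 0.106).

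Fn1 and Sparc were called in both treatments at 2 weeks. At 2 weeks Fn1 averaged 11.90 ± 0.10 in the LCA and 10.02 ± 0.23 in the RCA under atorvastatin, and 11.55 ± 0.85 in the LCA and 9.86 ± 0.18 in the RCA under vehicle (SD, n = 5 each). The difference was 1.87 under atorvastatin (3.66-fold, adjusted p = 6.13e-09) and 1.69 under vehicle (3.22-fold, adjusted p = 6.16e-08).

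Sparc, a collagen-binding protein abundant in endothelium, averaged at 2 weeks 12.47 ± 0.09 in the LCA and 11.65 ± 0.06 in the RCA under atorvastatin, and 12.33 ± 0.43 in the LCA and 11.67 ± 0.06 in the RCA under vehicle. Its difference was 0.82 under atorvastatin (1.77-fold, adjusted p = 8.39e-07) and 0.67 under vehicle (1.59-fold, adjusted p = 2.85e-05). At 24 h it lay below 0, at -0.24 under atorvastatin (adjusted p = 0.186) and -0.31 under vehicle (adjusted p = 0.0725). The second Sparc probe set was called lower at that time, by -0.67 under atorvastatin (adjusted p = 0.00985) and -0.79 under vehicle (adjusted p = 0.00223).

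Vehicle mouse 2 had the lowest difference of its group in 7 of 8 members at 2 weeks. Its values were 0.53 for Postn, 0.17 for Tnc, -0.48 for Thbs2, -0.11 for Fn1, -0.06 for Sparc and -0.62 for Ccn1. Ccn2 at 2.09 and Tgfbi at 3.60 were still well above 0 in this mouse. Its smooth muscle marker difference was -0.24, against 2.18 to 3.65 in the other 4 vehicle mice and 2.64 to 3.48 in the 5 atorvastatin mice. Its macrophage marker difference was 4.01, inside the 2.43 to 4.53 of the other 4, and its endothelial marker difference was -0.18.

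Across the 2-week groups, 7 of 7 tested smooth muscle markers were higher in the LCA in both treatments, with medians of 3.28 under atorvastatin and 2.40 under vehicle. The smooth muscle level was 8.46 to 9.30 in the LCA and 5.52 to 6.02 in the RCA under atorvastatin, and 5.61 to 9.22 in the LCA and 5.17 to 6.09 in the RCA under vehicle. Of 13 macrophage markers 12 were higher in both treatments. The endothelial markers went both ways: 4 of 14 were higher and 5 lower under atorvastatin, and 4 higher and 4 lower under vehicle, among them Emcn (1.75 under atorvastatin, 1.57 under vehicle) and Icam2 (-2.25 and -2.03). Of 5 tested T cell markers 2 were higher under atorvastatin and 4 under vehicle, with none lower, and of 8 tested fibroblast markers 2 were higher and 3 lower in both treatments. Over all tested genes, 29.9% were called under atorvastatin and 27.8% under vehicle. Actg2, Adgre1, C1qa, Fcgr1, Cd3d, Cd3g and Cd2 lay above the array median on only 0 to 3 RCA arrays. These markers passed the filter on dim genes only through LCA arrays, so their direction is not independent evidence. The actin 3′ to 5′ difference was higher in the LCA of every 2-week mouse, by 0.13 to 0.59 under atorvastatin and 0.08 to 0.74 under vehicle. It was also higher in every atorvastatin mouse at 48 h, by 0.22 to 0.60, and every vehicle mouse at 24 h, by 0.15 to 0.41. The part of these cell types and of RNA quality in the 2-week differences was not tested. Without vehicle mouse 2 the vehicle differences were 4.83 for Postn, 3.81 for Tnc, 1.54 for Thbs2, 2.14 for Fn1, 0.85 for Sparc, 4.39 for Tgfbi and 3.42 for Ccn2, all still called, and 0.68 for Ccn1, still not called.

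**Figure D3:**
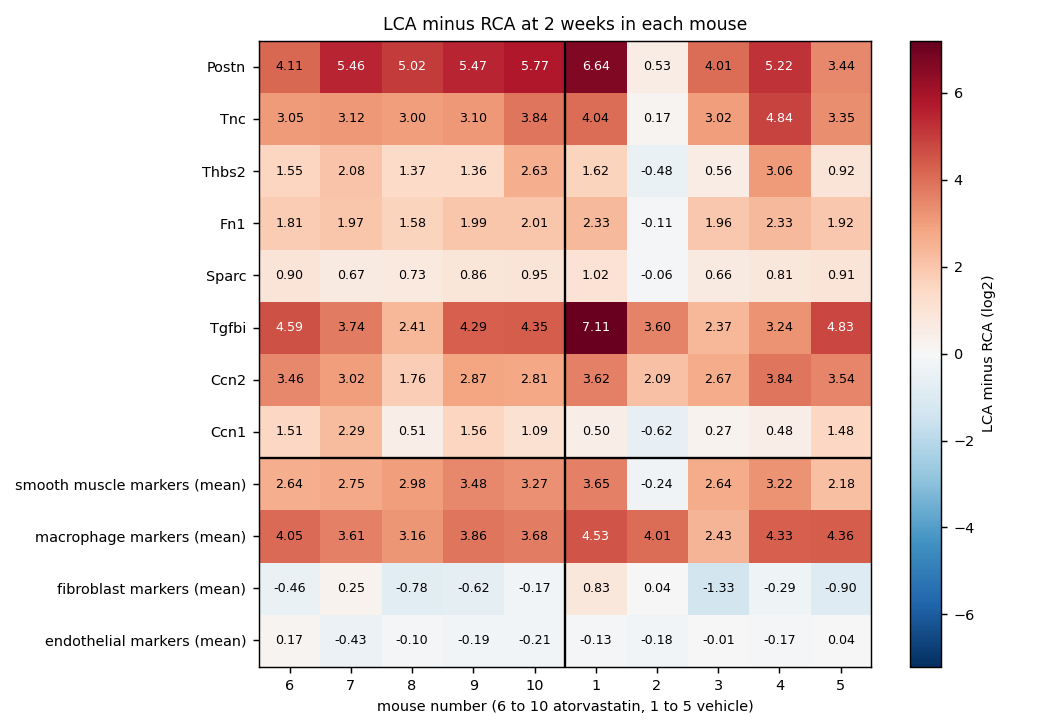
LCA minus RCA (log2, colour and printed value) at 2 weeks for each measured gene and for the mean of 4 marker lists (rows) in each mouse (columns), atorvastatin mice 6 to 10 left of vehicle mice 1 to 5. Vehicle mouse 2 shows low values for Postn, Tnc, Thbs2, Fn1, Sparc and smooth muscle markers and values above 2 for Tgfbi, Ccn2 and macrophage markers.

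Over the 4 times the LCA minus RCA difference changed for 7 of the 7 members other than Tnc under atorvastatin (33.5% of tested genes passed the F test) and for 5 of 7 under vehicle (32.9% passed). Tnc passed in both treatments, but it was tested through its high 2-week LCA group and so had to change. Ccn2 (adjusted p = 0.178) and Thbs2 (adjusted p = 0.0749) did not pass under vehicle. Thbs2 did pass with all its probe sets averaged (adjusted p = 0.0155), with its second probe set (adjusted p = 0.00883) and without 2-week mouse 2 (adjusted p = 0.0136). The vehicle time course of Ccn1 (adjusted p = 0.0295) was lost without 24 h mouse 2, 3 or 5 or 48 h mouse 2, 3 or 5, and with the pairing of arteries ignored (adjusted p = 0.084).

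From 48 h to 2 weeks, the difference rose for Postn, Thbs2, Fn1 and Sparc under atorvastatin and for Postn, Fn1 and Sparc under vehicle. The Tnc step was called in both treatments too, but Tnc was tested through its high 2-week LCA group and so had to rise. Its second probe set differed by only 0.30 under atorvastatin and 0.28 under vehicle at 2 weeks. All 4 vehicle calls were lost when only the mice of the 2 groups were fitted, with adjusted p of 0.0553 for Postn, 0.163 for Tnc, 0.204 for Fn1 and 0.112 for Sparc, and Sparc was also lost with its second probe set (adjusted p = 0.131). The vehicle Tnc step (2.12, adjusted p = 0.0319) was lost on leaving out 2-week mouse 1, 3, 4 or 5 or 48 h mouse 2 or 3, with adjusted p between 0.0525 and 0.124. The vehicle Fn1 step (1.07, adjusted p = 0.0235) was lost without 2-week mouse 1, 3, 4 or 5, with adjusted p between 0.0562 and 0.0912.

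The Thbs2 step was called under atorvastatin (1.73, adjusted p = 0.0296), but not without mouse 7 or 10 of the 2-week group or mouse 6, 8 or 9 of the 48 h group, nor with its second probe set (0.93, adjusted p = 0.159). Under vehicle it was 1.49 (adjusted p = 0.0593), and it was called without 2-week mouse 2 (1.89, adjusted p = 0.011), with all probe sets averaged (adjusted p = 0.0132) and with the second probe set (adjusted p = 0.00812). For Ccn2 the step was -1.03 under atorvastatin (adjusted p = 0.243) and -0.16 under vehicle (adjusted p = 0.898), and for Ccn1 it was -0.81 (adjusted p = 0.475) and -1.16 (adjusted p = 0.265).

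Atorvastatin was compared with vehicle for each artery and for the LCA minus RCA difference at each time, which gives 12 comparisons and 96 values over the 8 members. No member was called in limma, with adjusted p of 0.447 or more. Of all tested genes, 0% were called in the LCA at any time. In the RCA 0.0441% were called at 12 h, 0% at 24 h and 48 h and 0.00882% at 2 weeks, and for the LCA minus RCA difference 0.00882% at 12 h, 0% at 24 h and 48 h and 0.0176% at 2 weeks. At an unadjusted p under 0.05 in limma, the LCA counts over all 11344 tested genes were 577, 309, 476 and 313 at the 4 times. The RCA counts were 1274, 452, 1211 and 612, and those for the LCA minus RCA difference 416, 296, 581 and 495. Among the members, 2 of the 96 values had an unadjusted p under 0.05, Ccn2 in the RCA at 24 h (1.09, 95% interval 0.03 to 2.16) and Postn in the RCA at 48 h (-1.40, 95% interval -2.76 to -0.03).

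The intervals set what these groups can show. For the atorvastatin effect on LCA values the 95% half-width ran from 0.30 for Sparc to 1.42 for Postn. For its effect on the LCA minus RCA difference it ran from 0.34 to 1.82. The largest such estimates were -1.60 for Tgfbi at 24 h (95% interval -3.23 to 0.03) and 1.2 for Postn at 2 weeks (95% interval -0.52 to 2.92). A value that misses the threshold does not show that the treatments were alike.

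Genes related to the members were read from 5 lists. Their 2-week counts, here and below, stand beside 29.9% of all tested genes called under atorvastatin (14.5% as higher). Under vehicle the share was 27.8% (15.5% as higher). Of 25 other matricellular genes tested, 9 were higher and 4 lower in the LCA at 2 weeks under atorvastatin, and 6 were higher and 7 lower under vehicle. Further CCN genes were among the higher ones: Ccn5 differed by 4.87 under atorvastatin and 4.55 under vehicle, Ccn3 by 3.91 and 2.76, and Ccn4, named as a family member, by 2.02 and 1.53. Spock2, which encodes the proteoglycan testican-2, was lower by 12 h under vehicle (-1.60) and reached -4.10 under atorvastatin and -3.69 under vehicle at 2 weeks. At 48 h 2 of the 25 were higher and 9 lower in both treatments, and 14 were not called, where 31.8% of all tested genes were called under atorvastatin and 36.2% under vehicle.

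Of 21 receptors for these proteins, 10 were higher and 5 lower at 2 weeks under atorvastatin, and 10 higher and 3 lower under vehicle. The leukocyte integrin subunits Itgax (4.05 under atorvastatin, 4.78 under vehicle) and Itgb2 (3.15 and 4.65) and the endocytic receptor Lrp1 (3.12 and 3.61) had the largest changes of the list under vehicle. Itga8, an integrin subunit of smooth muscle and also a marker in that list, differed by 4.01 under atorvastatin and 3.11 under vehicle. Itgb5, which pairs with the alpha-v subunit, was the only receptor called at 12 h under vehicle (1.05), where 2.39% of tested genes were called.

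Of 23 genes of the TGF-beta pathway, 8 were higher and 4 lower at 2 weeks under atorvastatin, where 29.9% of tested genes were called. Under vehicle 9 were higher and 3 lower, where 27.8% were called. Ltbp2, a latent TGF-beta binding protein family member, differed by 6.47 under atorvastatin and 6.29 under vehicle, and the activin subunit gene Inhba by 3.38 and 3.90. Of 21 YAP/TAZ and SRF targets, 9 were higher and 2 lower under atorvastatin and 7 higher and 4 lower under vehicle. Ankrd1 (4.18 under atorvastatin, 3.19 under vehicle) and Acta2 (2.60 and 2.40), which is also a smooth muscle marker, were the largest of that list under vehicle.

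At 12 h 0 of these 21 targets were called under atorvastatin and 1, Crim1 (0.93), under vehicle. Only 1.68% of all tested genes were called at that time under atorvastatin and 2.39% under vehicle, so few calls could be met in a list of this size. Of 16 proteases and crosslinkers of matrix proteins, 7 were higher and 2 lower at 2 weeks under atorvastatin and 8 higher and 2 lower under vehicle. The macrophage elastase gene Mmp12 differed by 3.16 under atorvastatin and 4.76 under vehicle, and Plat, encoding tissue plasminogen activator, by -2.70 and -2.36.

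**Figure D4:**
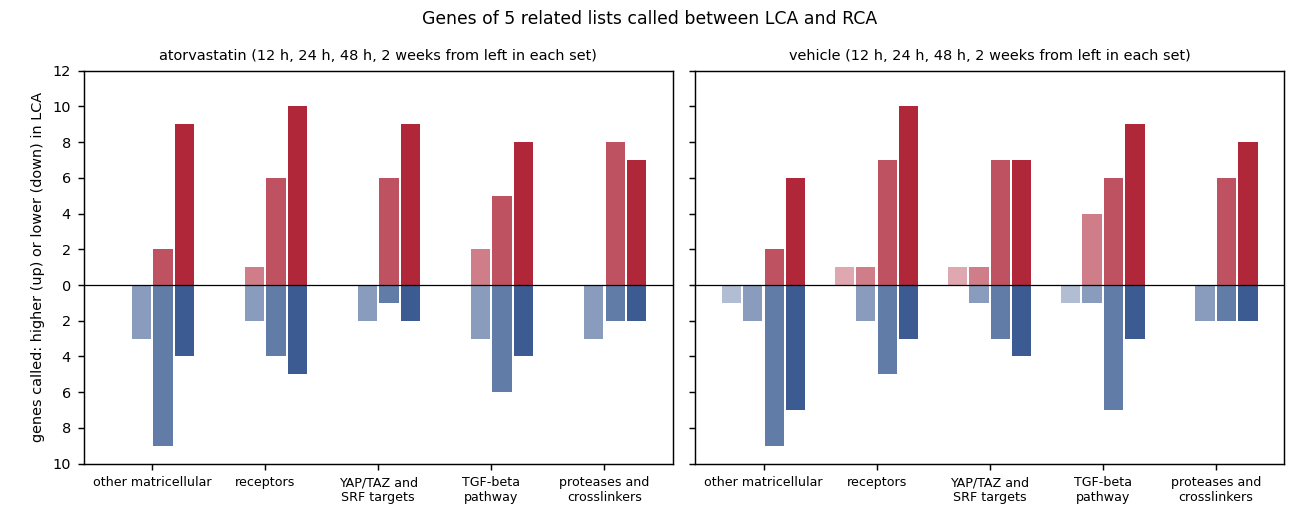
Number of genes (vertical axis) called higher (up) or lower (down) in the LCA for 5 lists of related genes (horizontal axis) at 12 h, 24 h, 48 h and 2 weeks from left to right, atorvastatin panel left of vehicle. At 12 h no list has more than 1 called gene in either direction, and the counts are larger at 48 h and 2 weeks in both treatments.

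The genes most like each member were those whose 8 group means of LCA minus RCA had the smallest root mean square gap to its own. For Postn they were Rgs5, a pericyte and smooth muscle gene, the smooth muscle actin gene Actg2 and Igfbp2, with gaps of 0.37, 0.40 and 0.48. For Tgfbi they were the chemokine receptor gene Ccr2, the Fc receptor gene Fcgr2b and St8sia4 (0.32, 0.33 and 0.41), and for Tnc the complement gene C1qa, Tent5a and Slamf9 (0.23, 0.33 and 0.38). Ccn2 was closest to Sox4, Gadd45a and Frzb (0.34, 0.42 and 0.71), and Ccn1 to Sdcbp2, Trmt61a and Slc1a5 (0.40, 0.48 and 0.48). Fn1 was closest to Tgfbr1, Ppfia4 and Oxct1 (0.18, 0.21 and 0.21), Sparc to Rab3il1, the basement membrane gene Nid1 and Traf5 (0.10, 0.11 and 0.14), and Thbs2 to Mtus2, Ptprz1 and Dnm3os (0.17, 0.19 and 0.22). These are descriptions over 8 group means from the same arrays. Actg2, C1qa and Tnc passed the filter on dim genes only through LCA arrays, so their likeness is not independent evidence. The cell source of the members was not tested.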

How the data were processed

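The authors deposited log2 expression values for 78 Affymetrix arrays, and the submitters' processing notes name RMA, with no version. Per the deposited log2 table, array medians lay within 4.59 to 4.77 (all values 1.79 to 13.235), and it was used as it stands. RMA compresses low signals and would hide a shift shared by most genes. The number of arrays limits the precision.

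Of 45118 probe sets, 81 were controls, 28898 had 1 gene symbol, 551 several and 15588 none in the platform annotation. Each of 17097 genes was represented by its probe set with the highest mean, and the 11344 that exceeded the median of an array on 4 or more arrays were tested. LCA minus RCA differences within mouse, and LCA and RCA values between mice, were fitted with limma 3.58.1 (statmod 1.5.0, R 4.3.3) over 8 groups with a shared variance and tested by contrasts and F tests with Benjamini-Hochberg adjustment. The script was tested on simulated data.

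The pairing comes from the labels, which say that both arteries came from each mouse. Of 39 pairs, 19 had deviations from the group means that correlated above 0.1 (median 0.088, range -0.34 to 0.513). No 2 arrays were identical. The labels mention 4 batches but assign no sample to them, so batch and group cannot be told apart here.

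The genes named were the 8 members throughout, up to 4 called genes of each related list with the largest change under vehicle, and the 3 genes most like each member. The members, lists and marker genes were chosen with earlier results of these data known, so their direction is not independent evidence. Alternatives changed the filter on dim genes, the probe set, the normalization, the variance estimate, the samples in the fit, the block and the mice included.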

Additional observations from a re-analysis of the deposited data

Results flagged for a closer look

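Of 64 sets of LCA minus RCA differences (8 members in 8 groups), 9 had a mouse far from the rest, with a gap to its nearest neighbour above Dixon's 95% critical value for 4 or 5 mice. Chance flags about 1 in 20 such sets. Tnc was 3.31 in vehicle mouse 4 at 24 h (others -0.25 to 0.04), -1.89 in atorvastatin mouse 10 at 12 h (others -0.34 to 0.24) and 3.84 in atorvastatin mouse 10 at 2 weeks (others 3.0 to 3.12). Thbs2 was 1.59 in atorvastatin mouse 8 at 12 h (others -0.64 to -0.36). Fn1 was -0.33 in atorvastatin mouse 7 at 12 h (others 0.28 to 0.38), -0.57 in atorvastatin mouse 8 at 24 h (others -0.13 to 0.05) and -0.11 in vehicle mouse 2 at 2 weeks (others 1.92 to 2.34). Tgfbi was 0.82 in vehicle mouse 4 at 48 h (others 3.58 to 4.69), and Ccn2 was -0.59 in atorvastatin mouse 7 at 24 h (others 2.27 to 2.78).

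The LCA minus RCA difference also differed between adjacent times for 14 members and steps, by a contrast of the fit. From 24 h to 48 h the steps under atorvastatin were 3.53 for Tgfbi, 2.98 for Ccn1 and 2.00 for Ccn2, and under vehicle 2.18 for Tgfbi and 2.20 for Ccn1. The Ccn2 step lost its call in limma when only the mice of the groups compared were fitted (adjusted p = 0.0649). From 48 h to 2 weeks they were, under atorvastatin, 4.18 for Postn, 2.58 for Tnc, 1.73 for Thbs2, 1.29 for Fn1 and 0.78 for Sparc. Under vehicle they were 4.09 for Postn, 2.12 for Tnc, 1.07 for Fn1 and 0.70 for Sparc. The Tnc steps are no independent evidence, because Tnc was tested through its high 2-week LCA group.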

How the results depend on the processing

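No called difference reversed under any alternative. The counts of members called, Tnc included, moved as follows. Averaging all probe sets, or using the second probe set, gave 2 at 24 h in each treatment in place of 1, adding Sparc as lower, and the second probe set gave 3 in place of 5 for the atorvastatin step from 48 h to 2 weeks. Without a filter on dim genes the vehicle step from 24 h to 48 h gave 1 in place of 2 and the atorvastatin RCA over time 0 in place of 1. Fitting only the mice of the groups compared, which leaves fewer mice to estimate the spread, gave 0 for atorvastatin at 12 h and at 24 h (1 each), 1 for the vehicle step from 24 h to 48 h (2), 0 for the vehicle step from 48 h to 2 weeks (4) and 0 for the atorvastatin RCA over time (1). With no replicate block, the paired design being ignored, the vehicle step from 24 h to 48 h gave 1, and no other count moved by over 1.5 times. Leaving out each mouse in turn gave 0 to 1 for the atorvastatin RCA over time, 2 to 5 for the vehicle step from 48 h to 2 weeks and 1 to 2 for the vehicle step from 24 h to 48 h. It gave 7 to 8 at 2 weeks and 3 to 4 at 48 h under atorvastatin, 6 to 7 at 2 weeks and 3 to 4 at 48 h under vehicle, and 0 throughout for atorvastatin against vehicle. Requiring 39 arrays above the median left Tnc untested and moved no count by over 1.5 times, nor did a second quantile normalization, a trended robust variance or the title code as a random block. Where no value shows the cause of a change, the cause was not tested. Low signal limits Tnc, and 4 or 5 mice a group limit the comparison of treatments.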
